A study of Mus musculus with 6 samples.

Results

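Strain differences in the newborn testis were described here from 2 arrays, which were 2 of the 6 in the study. One array carried pooled RNA of 25 testis pairs from 129.MOLF-Chr19 mice at postnatal day 1 (PN1), and the other carried pooled RNA of 12 pairs from 129/Sv mice of the same age. 129.MOLF-Chr19 is a consomic strain: its chromosome 19 is that of MOLF mice and its other chromosomes are those of 129. The other 4 arrays held the fetal testis at E13.5, an embryonic age in days, with 20 pairs pooled per strain, and whole male embryos of that age, with 3 pooled per strain. All animals were male, and no treatment is given in the labels. The submitters chose the newborn age because germ cells and embryonal carcinoma cells are found together in 129.MOLF-Chr19 testes then, and the comparison asks which genes differ at that time. Each strain had 1 array per tissue, so no difference has a replicate check and no test was made. Pools of different sizes were compared, and a pool holds testes with and without embryonal carcinoma cells in unknown proportion. Because whole testes were measured, fewer cells of a type and less RNA per cell cannot be told apart.

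Testicular germ cell tumors of 129 mice start in the fetal testis, where germ cells that should stop dividing and commit to spermatogenesis instead form foci of embryonal carcinoma. Embryonal carcinoma cells resemble the cells of the early epiblast: they use Pou5f1 (Oct4), Nanog and Sox2, respond to Nodal, and can form the germ layers that fill a teratoma. Normal germ cells switch off much of the same pluripotency network before birth, when they become quiescent gonocytes enclosed by Sertoli cells in the seminiferous cords.

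The values are probe set intensities, and the array carries several probe sets for many genes. A probe set was counted as expressed where the brighter PN1 array lay above its own median, which was 228.0 in 129/Sv and 228.4 in 129.MOLF-Chr19. Values under the 25th percentile of an array were raised to it (117.3 and 117.6), so a fold against such a value is a lower bound. Differences are log2 values of 129.MOLF-Chr19 minus 129/Sv after centring each array on its median. Of 12754 genes with an expressed probe set, 4988 had several and 7766 had 1. A gene was placed in agreement where all its expressed probe sets differed by at least 1.5-fold in the same direction and at least 1 by 2-fold. It was placed as discordant where 1 probe set passed 2-fold and another fell short of 1.5-fold in that direction.

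The balance of directions was not the same where probe sets agreed as where they did not. Among genes with several expressed probe sets, 9 were in agreement as higher in 129.MOLF-Chr19 (0.18%) and 9 as lower (0.18%), while 8 were discordant as higher (0.16%) and 283 as lower (5.67%). Of the genes called with several probe sets, 52.9% of the higher ones and 3.08% of the lower ones were in agreement. Genes with 1 expressed probe set gave 17 higher (0.219%) and 28 lower (0.361%). When each gene was read from its brightest probe set alone, 26 of 12729 were 2-fold higher (0.204%) and 113 were 2-fold lower (0.888%). The nearest genes to that threshold were at 1.0008 and 0.969 on the higher side and at −1.0015 and −0.996 on the lower side.

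The PN1 pools had the markers of a testis. The 18 Sertoli cell genes compared had a median difference of −0.01, with none past 2-fold, and their list summed to an intensity of 47225 in 129/Sv and 47083 in 129.MOLF-Chr19. The array medians differed by 0.0026 before centring. On the Affymetrix control probe sets for actin, the 3′ to 5′ ratio was 1.84 on the 129.MOLF-Chr19 PN1 array and 1.09 to 1.19 on the other 5, whereas the Gapdh ratio was 0.916 and 0.895 in the PN1 pair. The pyruvate carboxylase control ratio was 2.75 on the 129.MOLF-Chr19 PN1 array and 1.68 to 2.28 on the other 5. That for the transferrin receptor was 4.01 there and 3.19 to 4.99 on the other 5. The actin 3′ control read 5118 in 129.MOLF-Chr19 and 15203 in 129/Sv. The part that this array's RNA plays in the lower values described here was not tested.

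Among the genes in agreement as higher, Cer1 stood furthest apart. Cer1 encodes Cerberus, a secreted antagonist of Nodal and BMP made by the anterior endoderm of the gastrulating embryo. Its first probe set read 89.4 in 129/Sv and 1076 in 129.MOLF-Chr19 at PN1, and its second read 87.6 and 351. Across the 4 E13.5 arrays these probe sets read 52.8 to 78.2 and 74.0 to 90.1. Thus both were near background on 5 of the 6 arrays and bright on 1. The differences were 3.19 and 1.58, or at least 9.16-fold and at least 2.99-fold.

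Both glucose transporter genes of the glycolysis and glucose uptake list that passed 2-fold were in agreement. Slc2a3, which encodes the high-affinity transporter GLUT3, read 487 and 1887 on one probe set and 377 and 1404 on another, in 129/Sv and 129.MOLF-Chr19, with differences of 1.95 and 1.90. The E13.5 testes read 485 and 580.4 on the first, so 129/Sv stayed at the E13.5 level and 129.MOLF-Chr19 was above every other array. Other probe sets of Slc2a3, below the array median, read 166 and 113 (−0.50, 129.MOLF-Chr19 at the floor) and 205 and 194 (−0.08). Slc2a1, which encodes GLUT1, was higher on 3 probe sets by 1.27, 1.09 and 0.59. Its brightest read 489 and 1182 at PN1, 1080.0 and 1069.8 in the E13.5 testes, and 2056 and 1801 in the embryos. For Slc2a1, therefore, the 129/Sv newborn testis was the low sample and 129.MOLF-Chr19 lay near the E13.5 testes. Emb encodes embigin, a membrane glycoprotein that carries monocarboxylate transporters to the cell surface, and it read 210.1 and 1014 on one probe set and 762 and 1633 on the other, differences of 2.27 and 1.10. A transporter gene of that family, Slc16a1, had 1 expressed probe set, at 359 and 724 (1.01). A dimmer probe set of Emb, below the array median, read 169 and 166 (−0.03).

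In Cd24a and Mtm1, as in Slc2a1, the newborn 129/Sv testis was the lowest of the 6 arrays. Cd24a, which encodes a sialoglycoprotein on the surface of many immature cells, was higher on all 3 probe sets by 1.81, 1.80 and 1.32. Its brightest probe set read 1024 in 129/Sv and 3569 in 129.MOLF-Chr19, below the 4339 and 4477 of the E13.5 testes and the 7535 and 7556 of the embryos. Mtm1, an X-linked gene for the lipid phosphatase myotubularin, read 189.5 and 751 on one probe set and 199.8 and 658 on the other, differences of 1.98 and 1.72. The E13.5 testes read 1459 and 1366 on the first and 1543 and 1654 on the second. In both genes the newborn 129.MOLF-Chr19 testis was below both E13.5 testes.

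Krt8 encodes a keratin of simple epithelia, and its 3 probe sets read 716 and 1589, 556 and 1337, and 551 and 1195 in 129/Sv and 129.MOLF-Chr19. The differences were 1.15, 1.26 and 1.11, so that all 3 gave nearly the same fold. Krt18, whose product pairs with that of Krt8 in a filament, had 1 expressed probe set, at 575 and 1274 (1.14). Dnmt3b, a de novo DNA methyltransferase of the epiblast, was higher by 1.18 (373 and 848) and by 0.60 (293 and 445). Car4, a membrane carbonic anhydrase, was higher by 0.63 (238 and 369) and by at least 3.84-fold on a probe set that read 35.4 and 452. Car2, the cytosolic carbonic anhydrase gene, had 1 probe set, at 173 and 453 (1.39).

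**Figure D1:**
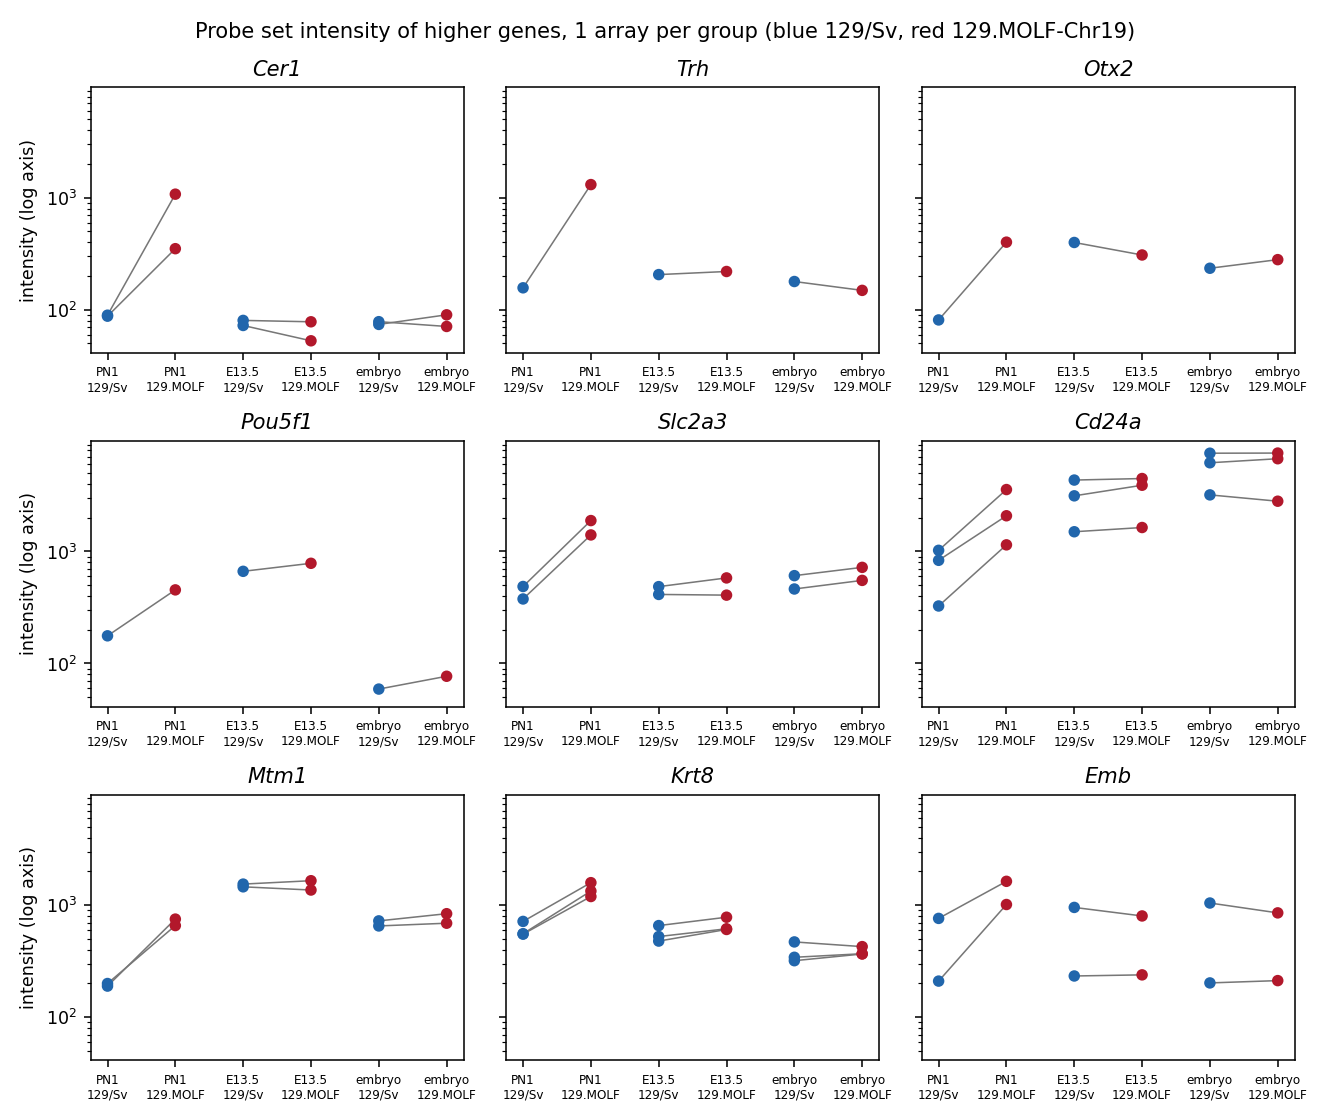
Intensity of every expressed probe set (log axis) of 9 genes that were higher in the PN1 testis of 129.MOLF-Chr19, on the 6 arrays, with 129.MOLF-Chr19 shortened to 129.MOLF. Each point is 1 array, blue for 129/Sv and red for 129.MOLF-Chr19, and a line joins the strains for 1 probe set, as in Cer1, at 89.4 and 1076 on its brighter probe set.

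The 18 probe sets past 2-fold in the 9 higher genes were not 2-fold apart in the same direction in either E13.5 pair. Their median difference was 1.65 at PN1, 0.16 in the E13.5 testis and 0.11 in the embryo, beside 0.07 and 0.04 over all probe sets in the E13.5 pairs. The 129.MOLF-Chr19 PN1 array was the highest of the 6 for 11 of them, and the 129/Sv PN1 array was the lowest for 10. These positions were partly fixed by choosing probe sets that differ between the same arrays. The expressed probe sets of Cer1 and Mtm1, and one each of Emb and Car4, were counted as expressed through 129.MOLF-Chr19 alone.

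The 17 higher genes with 1 expressed probe set held further genes of the early embryo. Trh, Otx2, Pou5f1, Fgf5, Spink1, Irs4, Cldn6, Cdh1, Car2, Atf6 and Hhex were counted as expressed through 129.MOLF-Chr19 alone. Such a filter by itself favours positive values. Trh, the precursor of thyrotropin-releasing hormone, read 157 in 129/Sv and 1309.8 in 129.MOLF-Chr19, a difference of 3.06 or 8.33-fold, against 149 to 219 on the 4 E13.5 arrays. Otx2, a homeobox gene of the epiblast and anterior neural plate, read 81.1 and 401 (1.77, at least 3.41-fold) and 399 and 308 in the E13.5 testes. Pou5f1 read 177 and 454 (1.36, 2.57-fold). Pou5f1 was brighter in both E13.5 testes, at 665 and 784, and was near background in the embryos, at 59.1 and 76.9. So the newborn 129.MOLF-Chr19 testis lay between the newborn 129/Sv testis and the E13.5 testes for Pou5f1.

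Fgf5, a growth factor gene of the primed epiblast, read 43.1 and 247 on its expressed probe set, a difference of 1.07 with 129/Sv at the floor. Its other probe set was below the array median and read 189 and 208. Spink1, a secreted trypsin inhibitor, read 108 and 509.7 (2.12, at least 4.34-fold), and Irs4, an adaptor of insulin and growth factor receptors, read 90.8 and 471 (2.00, at least 4.01-fold). Both had a 129/Sv value at the floor, and a dimmer probe set of Irs4 read 203 and 202. Cldn6, a tight junction gene of embryonic epithelia, read 128 and 389.9 (1.60), and Cdh1, which encodes E-cadherin, read 145 and 351 (1.27). Their E13.5 testis values were 279.9 and 333 for Cldn6 and 385 and 469 for Cdh1. The uncharacterised gene 2310068J16Rik was higher by 1.30 and the immunoglobulin family gene Cd200 by 1.19. The other 5 genes were Rims4 and Atf6 at 1.11, the protease gene Ctsc at 1.08, and Slc16a1 and Hhex, an endoderm homeobox gene on chromosome 19, at 1.01 and 1.00.

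The promoters of Cer1, Trh, Otx2 and Pou5f1 are shown because these genes differ together between the newborn testes and belong to the epiblast and anterior endoderm. Each sequence is the 250 bases before a RefSeq transcription start, 5′ to 3′ on the gene's strand, build GRCm38.p6. Otx2 has 4 listed starts, of which 1 window holds a searched motif, and both windows of Pou5f1 do. Capitals mark the OTX core TAATCC or its reverse GGATTA, and the nuclear receptor half-site AGGTCA or its reverse TGACCT.
Cer1 promoter, chr4:82885152-82885401, - strand: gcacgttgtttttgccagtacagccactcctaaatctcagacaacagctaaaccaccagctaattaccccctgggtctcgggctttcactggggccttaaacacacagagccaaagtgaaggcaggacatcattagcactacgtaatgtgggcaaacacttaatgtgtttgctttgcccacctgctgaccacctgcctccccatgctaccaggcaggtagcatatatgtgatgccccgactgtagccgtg
Trh promoter, chr6:92244651-92244900, - strand: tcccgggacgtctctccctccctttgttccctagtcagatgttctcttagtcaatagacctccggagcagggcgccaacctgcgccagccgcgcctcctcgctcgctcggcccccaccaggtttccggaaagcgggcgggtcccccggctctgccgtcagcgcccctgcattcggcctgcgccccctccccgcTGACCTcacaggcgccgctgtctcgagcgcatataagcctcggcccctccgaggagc
Otx2 promoter, chr14:48665110-48665359, - strand: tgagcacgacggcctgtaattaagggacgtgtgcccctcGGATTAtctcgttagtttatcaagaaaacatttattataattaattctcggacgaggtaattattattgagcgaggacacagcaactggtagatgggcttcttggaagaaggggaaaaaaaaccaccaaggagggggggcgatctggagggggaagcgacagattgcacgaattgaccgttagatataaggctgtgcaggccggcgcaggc
Pou5f1, upstream window promoter, chr17:35505782-35506031, + strand: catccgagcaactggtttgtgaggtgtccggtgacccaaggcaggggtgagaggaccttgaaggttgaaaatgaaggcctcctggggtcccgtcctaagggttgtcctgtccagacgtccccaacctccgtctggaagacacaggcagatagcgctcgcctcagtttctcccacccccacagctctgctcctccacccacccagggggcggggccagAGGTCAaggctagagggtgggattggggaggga
Pou5f1, downstream window promoter, chr17:35508557-35508806, + strand: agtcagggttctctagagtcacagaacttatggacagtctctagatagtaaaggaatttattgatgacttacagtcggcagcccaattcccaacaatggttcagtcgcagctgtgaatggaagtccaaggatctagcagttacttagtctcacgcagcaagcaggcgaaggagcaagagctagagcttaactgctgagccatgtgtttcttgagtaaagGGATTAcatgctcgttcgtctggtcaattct
The GGATTA in the Otx2 window begins 211 bases before the start, and that in the downstream Pou5f1 window 31 bases before. The half-site lies 33 bases before the upstream Pou5f1 start and 57 bases before the Trh start. Over all 32851 listed windows of this length, 6.25% hold the OTX core and 14% hold the half-site, and neither motif contains the other. Windows were listed for 19 of the 26 higher genes in agreement or with 1 probe set, 25 windows in all. The OTX core was in 2 of them (Otx2 and Pou5f1) and the half-site in 6 (Krt18, Krt8, Mtm1, Pou5f1 and Trh). The octamer ATGCAAAT or its reverse ATTTGCAT, the sequence that Pou5f1 binds, was in 0 of the 25 and in 1.6% of all windows. A match is a string of letters in this window and was not tested as a site.

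Other genes of the Nodal pathway lay on both sides. The gene lists read here and below were chosen with earlier results of these data known. Of 8 list members compared, the median difference was 0.37, against 0.03 over all genes, and 5 were positive. Of these 8, Cer1, Otx2, Eomes and Mixl1 were counted as expressed through 129.MOLF-Chr19 alone, a filter that by itself favours positive values, and with the filter at the 75th percentile the median was −0.04. Cer1 and Otx2 passed 2-fold on their brightest probe set, and Fgf5 and Eomes on another. Lefty1, a Nodal antagonist and target, read 635 and 1072 (0.75). The receptor gene Acvr2b read 663 and 645 (−0.04), Foxh1, for the transcription factor that acts with Smad proteins, 803 and 742 (−0.12), and the homeobox gene Lhx1 538 and 504 (−0.10). The ligand gene Nodal read 122 and 182, its coreceptor gene Tdgf1 34.7 and 154, its target Lefty2 50.1 and 172, and the organiser gene Gsc 86.2 and 173. These 4 lay below the array median on both arrays and were not compared. All 4 were brighter in 129.MOLF-Chr19, but at this intensity the values give no fold.

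Pluripotency genes were split. Of 18 compared, 8 were positive and the median was −0.04, with Pou5f1 and Dnmt3b past 2-fold higher. Trim71, a ubiquitin ligase gene of stem cells, was discordant, with probe sets at 0.01 and −1.26. Sall4, a zinc finger gene of germ cells and embryonal carcinoma, read 676 and 1013 (0.58). Nanog read 38.8 and 70.7 and Sox2 82.3 and 158, below the array median in both strains. Dppa5a read 263 and 257 and Dppa3 224 and 238, while their E13.5 testis values were 3763 and 3907 and 2864 and 2719.6. Both are genes of fetal germ cells, and both were far dimmer in either newborn testis than at E13.5.

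Endoderm genes were split. Of 16 compared, 12 were positive, with a median of 0.15. Sox17, Foxa2, Spink1 and Trh were counted as expressed through 129.MOLF-Chr19 alone, which favours positive values here too. Spink1 and Trh were past 2-fold higher, and Gata6, a transcription factor of primitive endoderm that somatic cells of the testis also make, was past 2-fold lower. Trh and Spink1 were the largest rises among genes with 1 expressed probe set. As the list was chosen with earlier results known, their place on it is no separate support. Foxa2 read 146 and 283 (0.96) and Sox17 206 and 375 (0.86), both transcription factors of the endoderm. Among yolk sac products, Afp, the alpha-fetoprotein gene, read 674 and 589.6 (−0.20), Ttr, for transthyretin, 329 and 368 (0.16), and Apoa1, an apolipoprotein gene, 389.9 and 541 (0.47) on its brightest probe set, with others at 0.75 and 1.22.

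Of 19 genes of epithelial junctions and keratins, 14 were positive, with a median of 0.22 and with Krt8, Krt18, Cldn6 and Cdh1 past 2-fold. Cdh1, Cldn6 and Dsp were above the median of the 129.MOLF-Chr19 array alone, so the filter favours positive values in this list as well. Desmoplakin, from Dsp, read 184 and 332 (0.84), whereas Epcam read 1034 and 1099 (0.09) and Jup, for plakoglobin, 1721 and 1529 (−0.17). Of 12 glycolysis and glucose uptake genes, 10 were positive, with a median of 0.23. Slc2a1 and Slc2a3 passed 2-fold, and the enzymes were closer, with Ldha at 3856 and 4903 (0.34) and Pgk1 at 4414 and 5576 (0.33). Of 14 proliferation genes, 13 were positive, with a median of 0.19 and none past 2-fold. Over all genes compared, 56.2% were positive.

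**Figure D2:**
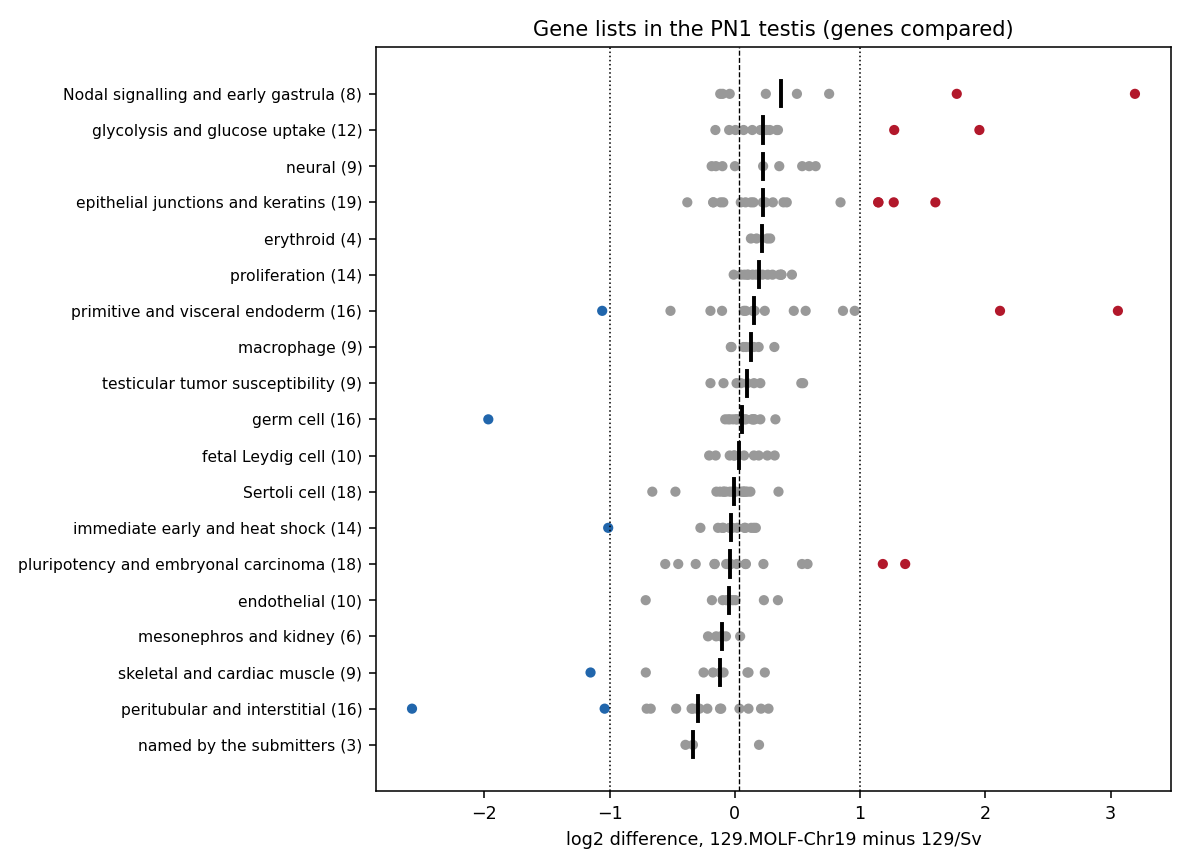
Log2 difference between the PN1 testes (129.MOLF-Chr19 minus 129/Sv) for every compared member of the gene lists, each point 1 gene by its brightest probe set, red past 2-fold higher, blue past 2-fold lower (dotted lines) and grey between, with a bar at the list's median and a dashed line at that of all genes. The Nodal list has a median of 0.37 and the peritubular and interstitial list a median of −0.29.

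Germ cell genes had a median of 0.06 over 16 compared, 11 of them positive. The germ cell RNA helicase gene Ddx4 read 494 and 499, and Mael, of the transposon silencing pathway, 1626 and 1586. Dazl, which encodes a germ cell RNA-binding protein, was the exception and was discordant: one probe set read 2718 and 695 (−1.97) and the other 829 and 1143 (0.46). The fetal Leydig cell list had a median of 0.03 over 10 genes, with none past 2-fold. The Sertoli gene Amh, for anti-Müllerian hormone, read 1374 and 871 (−0.66), and Inha, for inhibin alpha, 7424 and 7771 (0.06).

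The list of peritubular and interstitial cells had the lowest median of the cell type lists, −0.29 over 16 genes, 4 of them positive. Its summed intensity was 63133 in 129/Sv and 47800 in 129.MOLF-Chr19. Tagln, a smooth muscle gene, read 2878 and 1769 (−0.70), Col1a1, for a type I collagen chain, 7498 and 4713 (−0.67), and Acta2, for smooth muscle actin, 7173 and 5190.3 (−0.47). These 3 were below 2-fold. The members past 2-fold were discordant. Nr2f2, an orphan receptor gene of interstitial progenitors, had one probe set at 3325 and 558 (−2.58) and others at 0.00, −0.15 and −0.18. Pdgfra, a growth factor receptor gene, had one at 1060.4 and 231 (−2.20) and others at −0.12 and 0.42. Maf had its brightest at −1.04 and its others at −0.37 to 0.28.

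Lists for other cells that a dissected testis can carry along were also read. The macrophage list had a median of 0.13 over 9 genes, the endothelial list −0.04 over 10, the erythroid list 0.22 over 4, the mesonephros and kidney list −0.11 over 6 and the neural list 0.23 over 9, with no member past 2-fold. The muscle list had a median of −0.12 over 9, with skeletal actin, Acta1, at 549 and 247 (−1.15). The summed intensity of the muscle list was 3795 and 3149, of the erythroid list 1728 and 1988, and of the neural list 3207 and 3644. The immediate early and heat shock list had a median of −0.03 over 14, with Junb lower by 1.01 and at the floor in 129.MOLF-Chr19. Among 9 testicular tumor susceptibility genes the median was 0.10 and none passed 2-fold: Kitl, for the ligand of the germ cell receptor Kit, read 1254 and 1814 (0.53) and Dnd1, whose loss causes germ cell tumors in 129 mice, 450.5 and 519 (0.20). The part of other cells in the pools was not tested.

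In the lower direction, 9 genes were in agreement, 2 of them with every expressed probe set past 2-fold. Sdc4 encodes syndecan-4, a heparan sulfate proteoglycan of the cell surface. It read 5567 in 129/Sv and 1039 in 129.MOLF-Chr19 on one probe set and 890.0 and 444 on the other, differences of −2.42 and −1.01. The E13.5 testes read 3284 and 3065 on the first, so the newborn 129/Sv testis was the highest of the 6 arrays and 129.MOLF-Chr19 was between the E13.5 testes and the embryos. Rian is a maternally expressed long noncoding RNA of the imprinted Dlk1 and Meg3 cluster. Its expressed probe sets read 468 and 156, and 440.4 and 193 (−1.59 and −1.19), and 416 to 525 in the E13.5 testes. A dimmer probe set of Rian, below the array median, read 163 and 194 (0.25).

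Gata6 was lower on both expressed probe sets by nearly the same amount, at 1689 and 811 (−1.06) and at 1299 and 660.2 (−0.98), while both E13.5 testes read 1298 and 1306 on the first. Zfp503, for a zinc finger repressor, was lower by 1.30 and 0.98, and Skp1, for a subunit of the SCF ubiquitin ligases, by 1.15 and 0.81. Ptbp3, for a polypyrimidine tract-binding protein, gave −0.89 and, against a floored 129.MOLF-Chr19 value, −1.37. The rest were Nudcd2 at −1.18 and −0.95, C330007P06Rik at −1.30 and −0.79, and the polarity gene Pard6g at −1.01 and −0.78. Their E13.5 testis differences ran from −0.33 to 0.37.

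Of the lower genes, 28 had 1 expressed probe set. Fbln2, for the matrix protein fibulin-2, read 3475 in 129/Sv and 1275 in 129.MOLF-Chr19 (−1.45), Col12a1, for a collagen chain, 1119 and 474 (−1.24), and Gpc3, for the growth-restraining proteoglycan glypican-3, 2181 and 816 (−1.42). Cdkn1c, an imprinted cyclin-dependent kinase inhibitor gene, read 2049 and 965 (−1.09). The lowest was Lcn2, for the iron-siderophore carrier lipocalin-2, at 472 and 90.02 (−2.01, at least 4.02-fold). H3f3b, one of the genes for histone H3.3, read 1099.7 and 307 (−1.84) and 6820431F20Rik 819 and 240.4 (−1.77). The other named genes were Nufip2 at −1.33, Arhgap32 at −1.31, Smgc and Ptprj at −1.27 and Cactin at −1.25. Other probe sets of Nufip2 and Arhgap32, above the floor but below the array median, were at −0.04 and 0.05 and at −0.11 and 0.18.

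Most genes lower in 129.MOLF-Chr19 were discordant, so that the array held another probe set of the same gene with little or no difference. The 283 discordant genes had 941 expressed probe sets, of which 328 were past 2-fold lower. In 248 genes 1 probe set had moved, and in 35 several had. The 613 other probe sets of these genes had a median of −0.05 and an interquartile range of −0.28 to 0.13. Of these, 267 were positive and 60 were past 1.5-fold lower. The probe set that was brightest on the other 4 arrays was among the moved ones in 98 of the genes.

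The size of the discordance is seen in single genes. Scd2, a fatty acid desaturase gene on chromosome 19, had one probe set at 1277 and 85.6, at least 10.9-fold lower (−3.44). Its other 2 probe sets read 6018 and 5390.1 (−0.16) and 3175 and 2422 (−0.39). Mbnl2, for a splicing regulator, had 2 probe sets at −3.15 and −2.65 and 3 at −0.07, −0.05 and 0.27. In Rbbp4, for a histone-binding chaperone, probe sets at −3.05 and −2.21 stood beside the brightest, at 4852 and 4283 (−0.18).

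Tug1, a long noncoding RNA, had one probe set at 2825 and 352 (−3.01) and 2 others at 0.02 and 0.36. Jak1, a cytokine receptor kinase gene, held probe sets in both directions, at 859.6 and 72.8 (−2.87), 4035 and 1909 (−1.08) and 1058 and 1912 (0.85). Sec61a1, of the protein translocation channel, had 2 probe sets at −2.66 and −2.54 and 4 between 0.01 and 0.09. Kdm6b, a histone demethylase gene, was at −2.65 on one and at 0.03 and 0.27 on the others, and Kif5b, a kinesin gene, at −2.80 on one and −0.57 to 0.20 on its other expressed probe sets.

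Sox4 was different from these. This transcription factor gene had 6 expressed probe sets, all negative, at −3.00, −2.31, −2.16, −1.73, −0.62 and −0.53, and was discordant through the last alone. Its brightest probe set read 5501 and 3587. Actb, whose control probe sets differ as described above, had one probe set at 15386 and 3586 (−2.10) and another at 2785 and 2215 (−0.33).

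**Figure D3:**
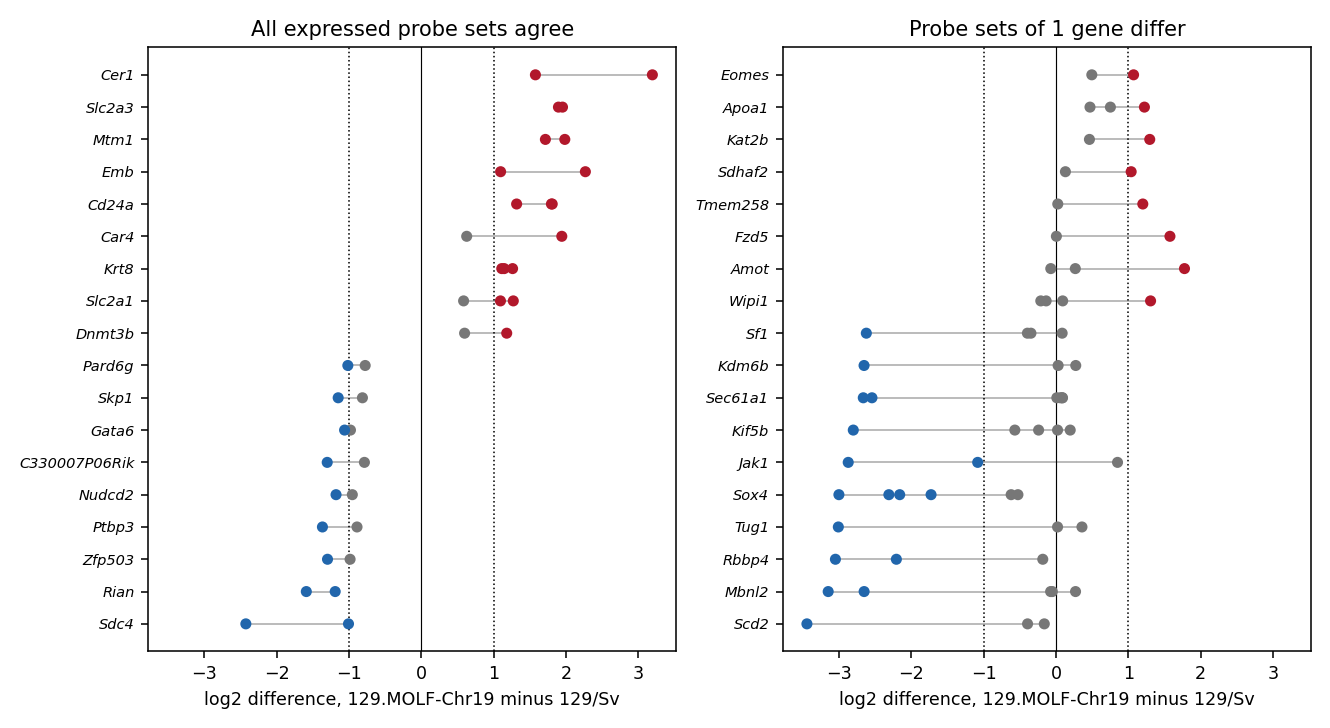
Log2 difference between the PN1 testes (129.MOLF-Chr19 minus 129/Sv) for each expressed probe set of named genes, 1 gene per line and 1 point per probe set, for genes in agreement (left) and discordant genes (right), red past 2-fold higher, blue past 2-fold lower (dotted lines) and grey between. The points of Krt8 lie between 1.11 and 1.26, whereas those of Scd2 lie at −3.44, −0.39 and −0.16.

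Disagreement between probe sets of a gene was larger in the PN1 pair than in the E13.5 pairs. The standard deviation of the difference among probe sets of a gene was 0.357 at PN1, 0.235 in the E13.5 testis and 0.272 in the embryo, over 4988, 5058 and 4981 genes. In agreement were 3 genes as higher (0.0593%) and 1 as lower (0.0198%) in the E13.5 testis, and 0 in either direction in the embryo. Discordant were 10 as higher (0.198%) and 7 as lower (0.138%) in the E13.5 testis, and 7 (0.141%) and 36 (0.723%) in the embryo. The probe sets of a gene spanned at least 2-fold in 404 genes at PN1 (8.1%), 43 in the E13.5 testis (0.85%) and 143 in the embryo (2.87%). Past 2-fold lower were 367 of 20544 expressed probe sets at PN1 (1.79%), 13 of 20586 in the E13.5 testis (0.0631%) and 57 of 20510 in the embryo (0.278%). Past 2-fold higher were 43 (0.209%), 18 (0.0874%) and 12 (0.0585%).

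The other 4 arrays show which PN1 array lay further from the E13.5 values in the moved probe sets. They differ from the PN1 arrays in age, and the embryos also in tissue, so they are no newborn baseline. For the 367 lower probe sets, the 129.MOLF-Chr19 PN1 array was the lowest of the 6 in 330 (89.9%), as it was in 18.4% of all expressed probe sets. Its median offset from the 4 E13.5 arrays was −1.39, and that of the 129/Sv PN1 array was 0.02. The same probe sets had a median strain difference of 0.12 in the E13.5 testis and 0.25 in the embryo. For the 43 higher probe sets both PN1 arrays lay apart from the E13.5 arrays. The median offset was 0.82 in 129.MOLF-Chr19 and −0.40 in 129/Sv, and the 129/Sv array was the lowest of the 6 in 21. The selection by these 2 arrays fixes part of such extremes, but not which of the 2 arrays lies further from the E13.5 arrays. A change with age or tissue cannot be told apart here from a departure of 1 PN1 array.

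**Figure D4:**
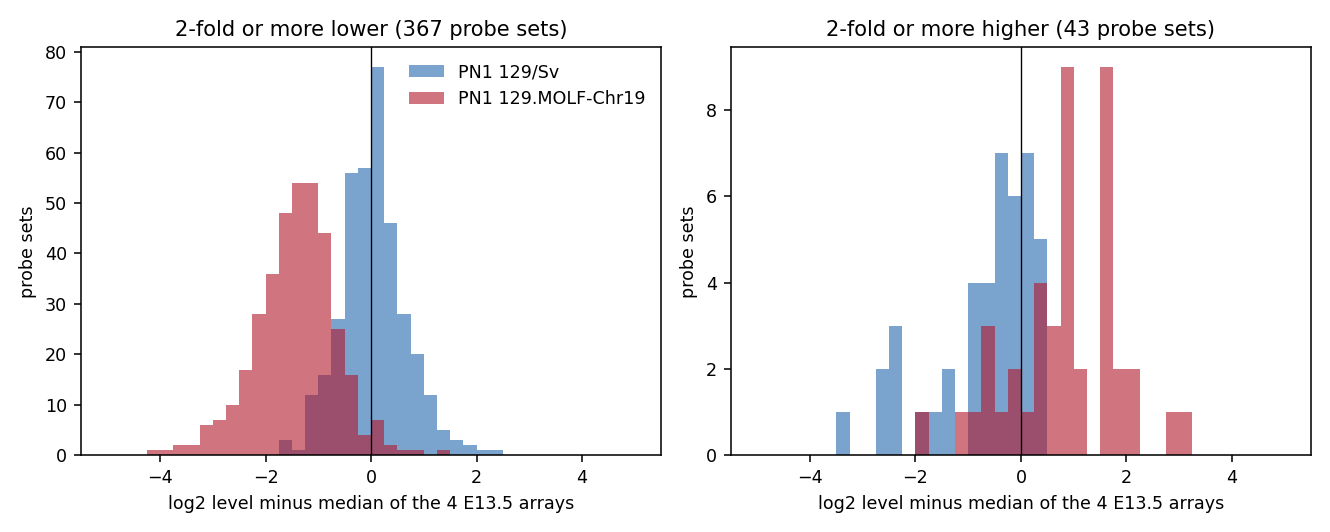
Histograms of the offset of each PN1 array from the median of the 4 E13.5 arrays (log2, blue 129/Sv and red 129.MOLF-Chr19, vertical axis the number of probe sets), for the probe sets past 2-fold lower and past 2-fold higher in 129.MOLF-Chr19. For the lower probe sets the 129/Sv offsets centre on 0.02 and the 129.MOLF-Chr19 offsets on −1.39, and for the higher ones the centres are −0.40 and 0.82.

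Lower probe sets were found at all intensities of the E13.5 arrays and more often among those bright there. The level was the mean log2 value over those 4 arrays, each centred on its median. Lower probe sets made up 1.46% of expressed probe sets whose level lay at or below that median. In steps of 1 above it on the log2 scale the shares were 1.15%, 1.95% and 2.54%, and 3.9% beyond 3. The floor leaves dim probe sets little room to fall 2-fold, which limits their share. Probe sets that Affymetrix marks with the suffix a, which match several transcripts of 1 gene, were 24.3% of the lower ones and 14.6% of all expressed ones. Those with the suffix x, which may bind other sequences, were 1.09% of the lower ones and 6.23% of all. Of the 43 higher probe sets, 14% had the suffix a and 11.6% the suffix x. Those with the suffix x included probe sets of Krt8, Cd24a and Slc2a3, which were counted as in agreement. Where in its transcript each probe set lies was not used here, and its part was not tested.

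The 8 discordant higher genes had smaller differences. Amot, a regulator of the Hippo pathway, had one probe set at 487 and 1672 (1.78) and others at 0.27 and −0.07. Fzd5, a Wnt receptor gene, had one at 115 and 350.2 (1.58, at least 2.98-fold) and one at 0.01. Eomes, a transcription factor gene of the primitive streak, had probe sets at 1.07 and 0.50, and Apoa1, for an apolipoprotein of yolk sac and liver, at 1.22, 0.75 and 0.47, all positive. Wipi1 was at 1.31 on 1 of its probe sets and at −0.21 to 0.09 on its other expressed ones. Sdhaf2, on chromosome 19, was at 1.04 and 0.13. Tmem258, on chromosome 19, was past 2-fold on the same probe set in the PN1 testis, E13.5 testis and embryo, at 1.20, 1.52 and 1.24. Its other probe set was at 0.02, −0.08 and −0.001. Kat2b, an acetyltransferase gene, was at 1.30, 1.13 and 0.9991 on one probe set, short of 2-fold in the embryo. Its other expressed probe set was at 0.46, 0.08 and −0.78.

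Chromosome 19 is where the strains differ by descent. Of 446 chromosome 19 genes with an expressed probe set, 20 were called in any class (4.48%), 18 of them as discordant, against 334 of 12293 on the other chromosomes (2.72%). Lower probe sets were 2.3% of 738 on chromosome 19 and 1.77% of 19788 elsewhere. The single-probe-set genes were Hhex, higher at 172 and 345, and Lipo3, a lipase family gene, lower at 288 and 135 (−1.10).

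The 17 lower probe sets of chromosome 19 differed in how they read at E13.5. Probe sets of Sf1, Pum3, Cox15 and Trim8 were past 2-fold lower in all 3 tissues, and no probe set off chromosome 19 was. Sf1, for a splicing factor, read 4894 and 797 at PN1 (−2.62), 5664 and 856 in the E13.5 testis and 5439 and 603 in the embryo. Its other expressed probe sets read 3624 and 2761 (−0.40), 1182 and 1256 (0.09) and 612 and 482 (−0.35) at PN1. Pum3, for an RNA-binding protein, was at −2.48, −2.46 and −2.25 on one probe set in the same order of tissues. At PN1 that probe set read 731 in 129/Sv, the highest of the gene there, and 132 in 129.MOLF-Chr19. Its others read 429 and 491 (0.19) and 384 and 377 (−0.03). Cox15, for a heme A synthesis enzyme, was at least 2.69-fold lower at PN1 on one probe set (316 and 81.4) and at −0.34 and −0.15 on its others. Trim8 was at −1.39, −1.03 and −1.06 on one probe set in the same order of tissues. Its others were at −0.04 and −0.19 at PN1 and at 0.38 and 0.23 in the E13.5 testis.

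For Ndufv1, a subunit gene of respiratory complex I, one probe set was at −1.48, −0.98 and −1.25 in the 3 tissues. Its other expressed probe sets were at −0.23, 0.26 and −0.03, and at −0.52, −0.33 and −0.70. Among the others, Scd2, Sf3b2, Eif3a, Add3 and Wbp1l had a probe set past 2-fold lower at PN1 whose difference in the E13.5 testis was positive, at 0.36, 0.40, 0.49, 0.40 and 0.44. Each of these 5 genes also had a probe set between −0.16 and 0.15 at PN1. The lower probe sets of Fam160b1, Cpsf7, Nhlrc2, Ina and Lipo3 were negative in the E13.5 testis, at −0.48, −0.48, −0.49, −0.58 and −1.33, and in the embryo, at −0.07, −0.08, −0.46, −1.45 and −0.38. That of Fads2, a fatty acid desaturase gene, was at −0.06 and 0.32, and that of Ide, for an insulin-degrading protease, at 0.03 and 0.16. Whether the pairs of tissues differ could not be tested with 1 array each.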

How the data were processed

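RNA of pooled testes or embryos was hybridised to 1 Affymetrix mouse array per group. The deposited values are probe set intensity on a linear scale, and how the authors summarised and normalized them is not given in the sources used here. Of 45101 probe sets, 64 were controls, 34945 had 1 gene symbol in the platform annotation, 932 had several and 9160 had none, and the latter kinds were left out of the gene comparisons. Values below the array's 25th percentile were set to it, log2 values were taken, and each array's median over non-control probe sets was subtracted. RefSeq, build GRCm38.p6, gave the chromosomes and promoters.

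Probe sets, classes and 19 gene lists were handled with Python 3.11.15, numpy 2.4.6, pandas 2.3.3 and statsmodels 0.14.6. Genes were named by rule: all in agreement, the 10 largest differences each way among single-probe-set and among discordant genes, list members and chromosome 19 genes past 2-fold, and Sf1, Pum3 and Cox15. Any gene outside this rule was picked with its values in view. The members and lists were chosen with earlier results of these data known. The precision is limited by the number of arrays. The alternatives were other scalings (values as deposited, quantile, lowess), floors, expression filters, fold thresholds and gene summaries.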

Additional observations from a re-analysis of the deposited data

Results flagged for a closer look

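Probe sets without a single gene symbol were outside the gene comparisons and held strain differences too. Of 3261 expressed at PN1, 5 were past 2-fold higher in 129.MOLF-Chr19 (0.153%) and 36 past 2-fold lower (1.1%), from −2.98 to 1.85.

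A probe set of Fscn1, which encodes the actin-bundling protein fascin, was lower in 129.MOLF-Chr19 at PN1 (−1.48) and higher in the E13.5 testis (1.05). A probe set of Kdm6b was lower at PN1 (−2.65) and higher in the embryo (1.07). Both came up because the strain difference had opposite signs in 2 tissues, and the difference between tissues was not tested.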

How the results depend on the processing

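With the values as deposited, quantile or lowess scaling, every class count stayed within 1.5 times. No named gene in agreement or with 1 expressed probe set turned its direction. A change of sign was not looked for in list medians or in discordant genes. At a 1.5-fold threshold, 168 genes were higher and 334 lower by the brightest probe set, 35 and 89 in agreement, 99 and 574 discordant, and 115 and 118 with 1 probe set. At 3-fold these were 9 and 30, 4 and 1, 3 and 90, and 5 and 3. In both settings the limit for agreement moved with the threshold. It lay below 1.5-fold in the first and above it in the second. With no expression filter, discordant higher genes numbered 17, and genes with 1 expressed probe set 11 and 16. With the 75th percentile as filter, discordant genes numbered 3 and 169 and the Nodal list had a median of −0.04 (−0.0414). With the floor at the 40th percentile, 5 genes were discordant as higher. Averaging a gene over all its probe sets gave 17 higher and 40 lower (70.2% lower, against 81.3% by the brightest), and the median of expressed probe sets 25 and 63 (71.6% lower). The cause of these shifts was not tested beyond what each setting leaves in. Of 441 values of named genes under alternatives, 424 moved by less than the spread within genes. The expression filters could not move these values, because the probe sets of each gene were fixed beforehand. Leaving out the centring could shift them by 0.0026 only. Leaving out a replicate was not possible with 1 array per group. No paired analysis was possible because the groups share only 1 replicate number. Low intensities limit Nanog, Tdgf1 and other genes below the array median.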

Other observations

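Imprinted genes were looked at after Rian and Cdkn1c had been seen among the lower genes, so their list was chosen after values were seen. Of 15 compared by the brightest probe set, 5 were positive and the median was −0.09. Rian and Cdkn1c were past 2-fold lower on it. Meg3, the maternally expressed RNA next to Rian, had its brightest probe set at 6933 in 129/Sv and 5357 in 129.MOLF-Chr19 (−0.37) and another at 3312 and 1143 (−1.54), and was discordant. Igf2r, the maternally expressed receptor that clears insulin-like growth factor 2, had probe sets at −0.03 and −1.50. Grb10, a growth-restraining adaptor gene, had its brightest at 2305 and 2917 (0.34) and others at 568.7 and 94.5 (−2.28) and −1.52. Igf2 read 5593 and 4021 (−0.48), Dlk1, the paternally expressed partner of Meg3, 7958 and 7342 (−0.12), Mest 3045 and 3651 (0.26) and Nnat 821 and 1210.4 (0.56). Thus Rian was the one imprinted gene on this list whose several expressed probe sets were all past 2-fold in the same direction. A Rian probe set below the array median read 163 and 194 (0.25), and another lay under the floor on both arrays.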
